A study of Oryctolagus cuniculus with 15 samples.

Results

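Laminins, perlecan and nephronectin are secreted glycoproteins of the basement membrane and the surrounding matrix. They were followed here through 9 genes, taken by name from the 23428 protein-coding genes of the deposited table: the laminin α chains LAMA1, LAMA2, LAMA4 and LAMA5, the β chain LAMB1, the γ chains LAMC1 and LAMC3, the perlecan core protein HSPG2 and the nephronectin gene NPNT. The rule is by name and uses no measured value, but the 9 genes were chosen with earlier results of these data known, so their counts beside all genes are a description. All 9 were present in the table and passed the filter on low counts in every comparison. The cells were first-passage corneal keratocytes of New Zealand white rabbits, kept for 6 days in serum-free medium and measured by bulk RNA-seq, with 3 libraries per condition. Cells lay on collagen-coated dishes (2DC), on the surface of matrices of fibrillar collagen (2DF) or inside such matrices at 100000 cells per matrix (3DF) or 50000 cells per matrix (3DF_50). A further set on collagen-coated dishes was lysed directly (2DC_L), whereas the cells of every other condition first went through an incubation in digestion medium. No line, transgene or treatment other than the culture format distinguished the conditions, and every library pooled dishes or matrices of 1 experiment.

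A laminin is a cross-shaped trimer of 1 α, 1 β and 1 γ chain that is assembled inside the cell, secreted and polymerized into a sheet on the cell surface. The carboxy-terminal globular domains of the α chain bind integrins, dystroglycan and syndecans, so that the α chain sets which receptors a trimer engages. The short arm of the γ chain encoded by LAMC1 holds the binding site for nidogen, which bridges laminin to type IV collagen. Perlecan is a large proteoglycan that carries heparan sulfate chains, binds growth factors and links laminin with other matrix components. Nephronectin is a ligand of the integrin formed by ITGA8 and ITGB1. In the cornea, laminin is best known from the basement membranes under the epithelium and of the endothelium, while the keratocytes lie between them in a stroma of fibrillar collagen.

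Between 14626982 and 31804255 reads were counted per library, and levels are given as FPKM, fragments per kilobase of gene model scaled to a common library size, which allows genes to be set against each other. Keratocyte markers (KERA, LUM, DCN, OGN, ALDH1A1, TKT and CD34) summed to 20151 to 43134 FPKM, and all 7 had a mean of at least 1 FPKM in every condition. Corneal epithelium markers, 8 genes in the table, summed to 0.268 to 1.32 FPKM in 2DC and 0.357 to 1.18 in 2DC_L. Their sum was 8.17 to 13.3 FPKM in 3DF, 0.0869 to 6.39 in 3DF_50 and 0.948 to 6.49 in 2DF. Of these, KRT3, KRT5, KRT12, DSP and CDH1 were called higher in 3DF than in 2DC (5 of 6 tested), and KRT12 had 0 counts in 2DC and 2DC_L. TP63 alone of the list had a lower mean in 3DF (0.0877 FPKM) than in 2DC (0.162), with at most 33 counts in a library. Proliferation markers summed to 5.41 to 38.7 FPKM in 2DC, 14.9 to 29.1 in 2DC_L and 2.53 to 4.64 in the other 3 conditions, with MKI67, TOP2A and CDK1 lower in 3DF and in 2DF than in 2DC. The sum of 5 vascular endothelium markers was 32.9 to 62.5 FPKM in 2DC and 117 to 119 in 3DF, with KDR called higher and PECAM1 near 0 in every condition, and the sum of 3 corneal endothelium markers was 291 to 399 in 2DC and 126 to 184 in 3DF, with COL8A2 called lower. The part of these markers in the results below was not tested. In bulk RNA, fewer cells of a type and less RNA per cell cannot be told apart.

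In the F test for any difference among the 5 conditions, all 9 genes passed at an adjusted p of 0.05, compared with 41.8% of the 14036 genes tested. Levels of most members were highest on the collagen-coated dishes, with or without digestion, and lower in all 3 conditions with fibrillar collagen. HSPG2, LAMA2, LAMA4, LAMA5, LAMB1, LAMC1 and NPNT shared this pattern, in that the lowest mean of the coated dishes lay above the highest mean of the fibrillar conditions. LAMC3 ran the other way, and LAMA1 was lowest in 2DF and highest in 3DF. The plot of FPKM by condition shows all 9 genes.

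**Figure D1:**
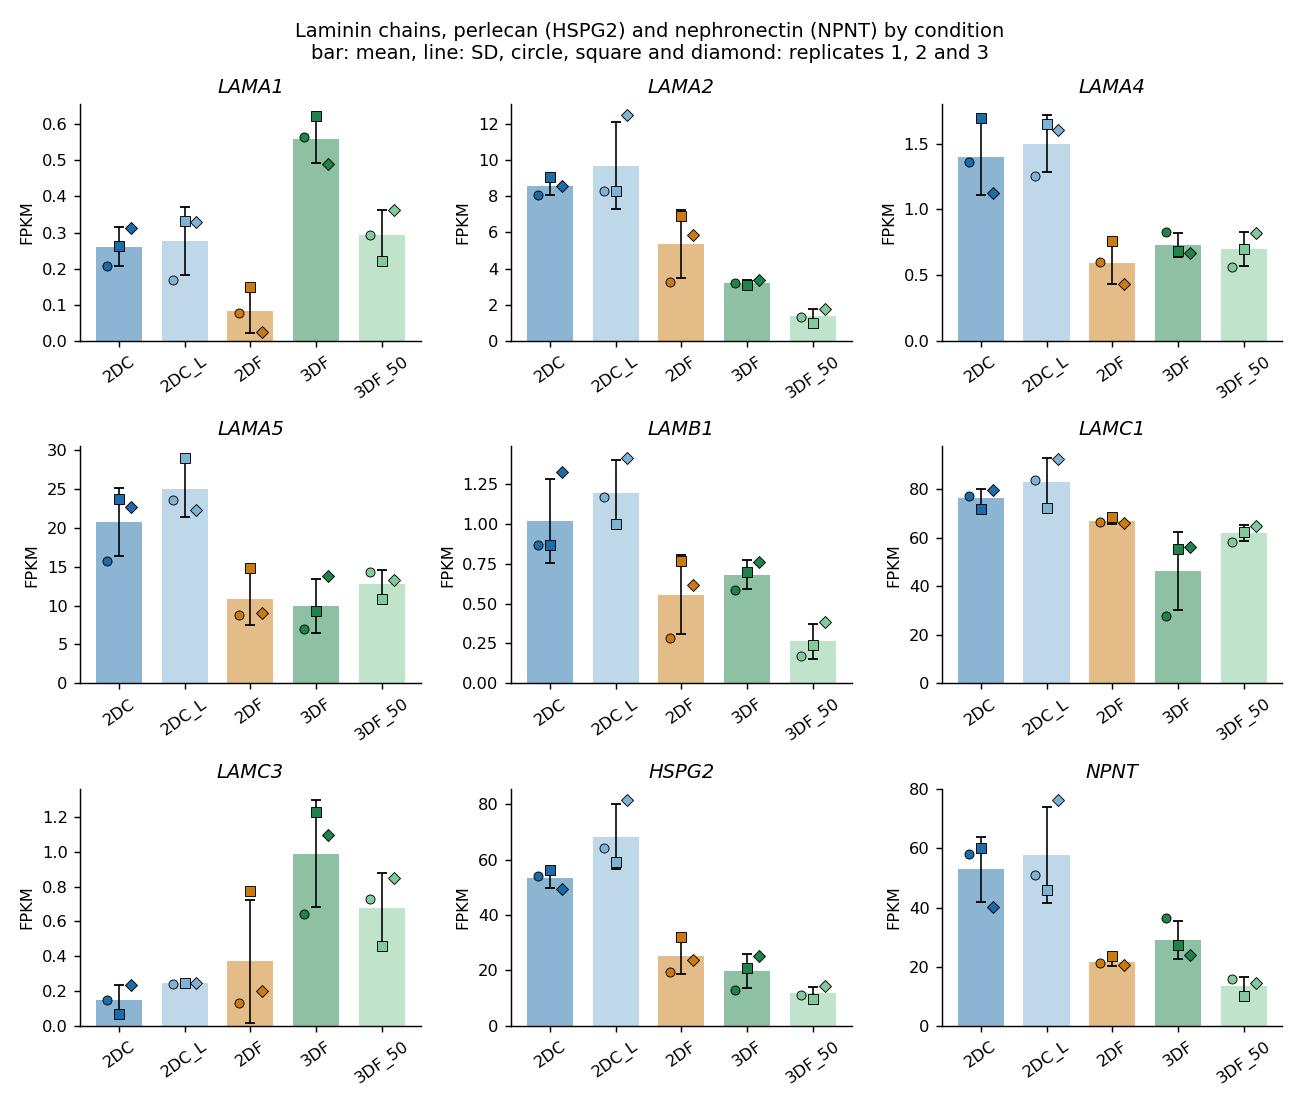
FPKM of the 9 genes in the 5 conditions, with a bar for the mean, a line for the SD and a point for each of 3 libraries (each panel has its own axis from 0). The coated dishes (2DC, 2DC_L) hold the highest means of 7 genes, whereas LAMC3 is lowest there and LAMA1 is highest in 3DF.

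A differentially expressed gene (DEG) is defined here by an adjusted p of at most 0.05 in edgeR together with a change of at least 1 on the log2 scale, up or down. In 3DF vs. 2DC, the comparison of embedded cells with cells on coated dishes, 5 of the 9 genes were DEGs, and 7.56% of the 13493 genes tested were. LAMA2, LAMA5 and HSPG2 were lower and LAMA1 and LAMC3 were higher. The FPKM values of the 3DF and 2DC libraries did not overlap for any of the 9 genes, as for 37.8% of all genes tested. In 2DF vs. 2DC, which changes the collagen but keeps the cells on a surface, 3 of the 9 were DEGs (LAMA4, HSPG2 and NPNT, all lower) against a background of 4.96%, and 8 of the 9 did not overlap (35.2% of all genes). In 3DF vs. 2DF, both on fibrillar collagen, LAMA1 alone of the 9 was a DEG (background 3.78%), and 3 of the 9 did not overlap (29.3%). Doubling the cell number per matrix, 3DF vs. 3DF_50, gave 1 DEG among the 9, LAMA2 (background 0.452%), with 5 genes that did not overlap (29.4%). The median log2 fold change of the 9 genes was -0.87 in 3DF vs. 2DC and -0.92 in 2DF vs. 2DC, whereas over all genes tested it was 0.0123 and 0.00451.

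**Figure D2:**
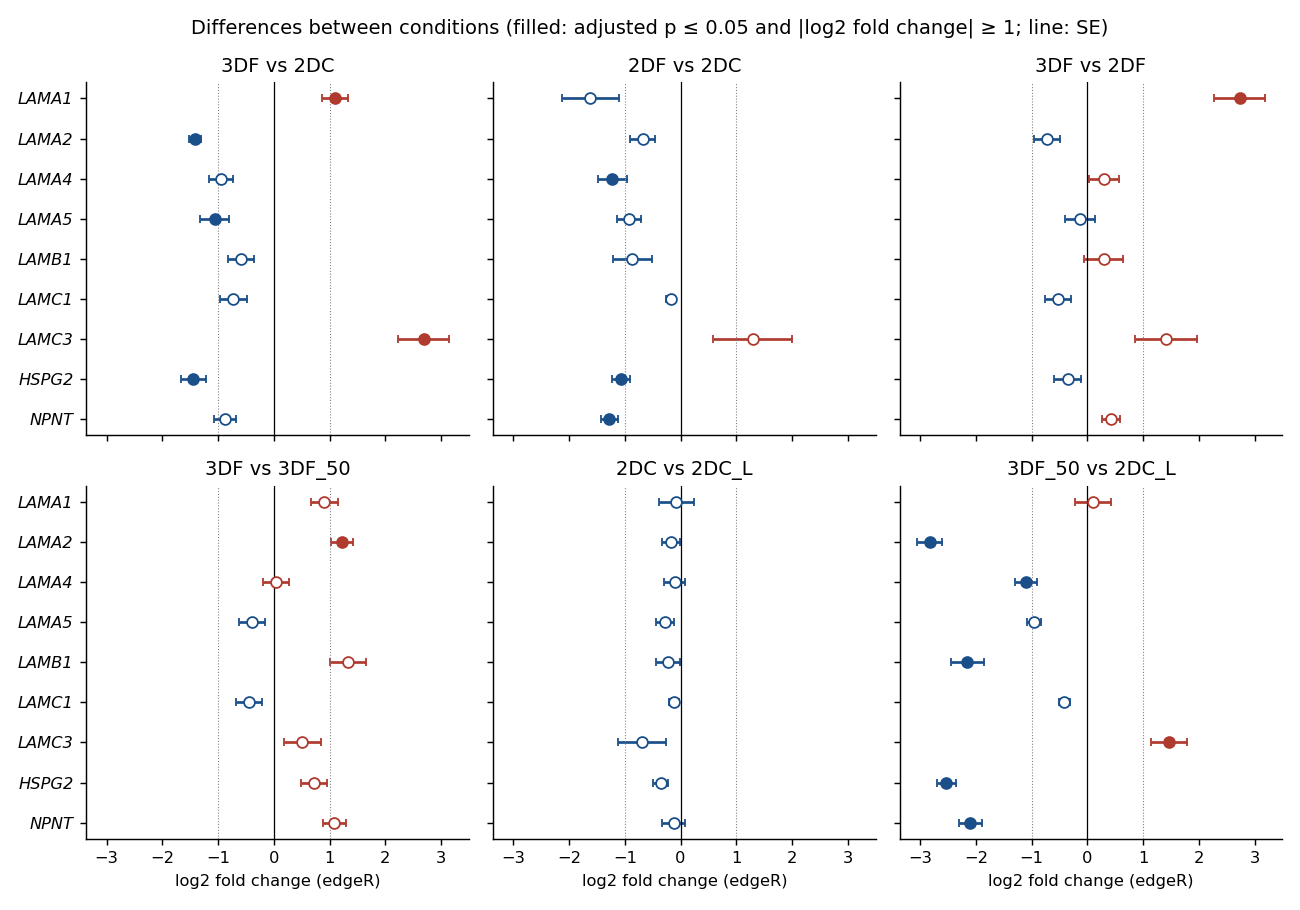
Log2 fold change of each gene (points) with its standard error (lines) in 6 comparisons from edgeR, with filled points for DEGs. Most genes lie below 0 in 3DF vs. 2DC and 2DF vs. 2DC, LAMC3 and LAMA1 lie above 0 in 3DF vs. 2DC, and all points of 2DC vs. 2DC_L are open.

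Perlecan, encoded by HSPG2, was lower on or in fibrillar collagen than on either set of coated dishes in every such comparison. HSPG2 lies on chromosome 13 of oryCun2, from 131388591 to 131490550 on the plus strand, and overlaps no other gene of the table. Its level was 53.9, 56.3 and 49.3 FPKM in 2DC and 64.1, 59.2 and 81.4 in 2DC_L. It was 19.6, 32.2 and 24.0 FPKM in 2DF, 13.1, 20.9 and 25.1 in 3DF, and 11.1, 9.85 and 14.4 in 3DF_50. Every coated-dish library was above every fibrillar library, and the 2DF and 3DF libraries overlapped. The fold change was -1.44 ± 0.22 on the log2 scale in 3DF vs. 2DC (SE, n = 3 per condition, edgeR adjusted p = 0.00397) and -1.07 ± 0.17 in 2DF vs. 2DC (edgeR adjusted p = 0.00405). At 50000 cells per matrix, HSPG2 was lower still relative to the dishes, with a log2 fold change of -2.17 ± 0.14 (edgeR adjusted p = 1.32e-05), and it was also lower than in 2DF by a log2 fold change of -1.08 (edgeR adjusted p = 0.00266), a call lost without 2DF replicate 2, without 3DF_50 replicate 2 and with scaling by library size alone (-0.85). Neither 3DF vs. 2DF (-0.35 ± 0.25) nor 3DF vs. 3DF_50 (0.71 ± 0.23, edgeR adjusted p = 0.154) passed the test. The call in 3DF vs. 2DC was made in all 6 fits that left out 1 library, and the call in 2DF vs. 2DC in 5 of 6 (not without 2DF replicate 1). Scaled by library size alone, HSPG2 in 2DF vs. 2DC had a log2 fold change of -0.97, under the limit.

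Nephronectin, like perlecan, had its lower levels on and in fibrillar collagen. NPNT lies on chromosome 15, from 43630127 to 43711472 on the minus strand, with no overlapping gene. It was measured at 58.3, 60.1 and 40.3 FPKM in 2DC, 51.0, 46.0 and 76.3 in 2DC_L, and 21.2, 23.6 and 20.6 in 2DF. The matrices gave 36.3, 27.2 and 23.8 FPKM in 3DF and 15.7, 10.2 and 14.5 in 3DF_50. The means fell in the order of coated dishes, 3DF, 2DF and 3DF_50, with overlap between the 2 sets of coated dishes, but the 3DF and 2DF libraries came as close as 23.8 and 23.6 FPKM and their difference did not pass (0.42 ± 0.17, edgeR adjusted p = 0.179). NPNT fell on fibrillar collagen in 2DF vs. 2DC by a log2 fold change of -1.27 ± 0.15 (edgeR adjusted p = 0.00117), a call made in all 6 fits without 1 library. In 3DF vs. 2DC the difference was -0.87 ± 0.20, with an edgeR adjusted p of 0.0209 but a fold under the limit. In 3DF vs. 3DF_50 it was 1.09 ± 0.20 and just missed the threshold (edgeR adjusted p = 0.0522), a difference that DESeq2 called (adjusted p = 5.01e-05). None of the 6 fits without 1 library called this difference, nor did scaling by library size alone. NPNT was lower in 3DF_50 than in 2DC by a log2 fold change of -1.97 (edgeR adjusted p = 9.96e-05).

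Among the laminin α chains, LAMA5 and LAMA2 made up most of the signal. LAMA2, which encodes the α chain of the laminin of muscle and nerve that binds dystroglycan, lies on chromosome 12 from 118811865 to 119513495 (plus strand), and the predicted gene LOC108177472 (5 to 23 counts, minus strand) lies within it. Levels of LAMA2 were 8.08, 9.08 and 8.60 FPKM in 2DC, 8.30, 8.31 and 12.5 in 2DC_L, and 3.27, 6.92 and 5.86 in 2DF. They were 3.21, 3.10 and 3.37 FPKM in 3DF and 1.32, 0.963 and 1.78 in 3DF_50. The coated dishes lay above all other libraries, the 3DF libraries were close together, and 3DF_50 was lowest with no overlap. LAMA2 fell in 3DF vs. 2DC by a log2 fold change of -1.42 ± 0.11 (edgeR adjusted p = 0.000167) and rose from 3DF_50 to 3DF by 1.22 ± 0.20 (edgeR adjusted p = 0.0393). The first call was made in all 6 fits without 1 library. The second was lost without 3DF replicate 3, without 3DF_50 replicate 1 and without 3DF_50 replicate 2, and with scaling by library size alone (1.07, edgeR adjusted p = 0.0508). In 2DF vs. 2DC its difference was -0.68 ± 0.22 (edgeR adjusted p = 0.0726), and the 3DF_50 libraries were lower than 2DF by a log2 fold change of -1.96 ± 0.27 (edgeR adjusted p = 0.000799).

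LAMA5, the widely expressed α chain of epithelial and vascular basement membranes, had the highest level of the 4 α chains. Its gene model, of 3191 bases on the unplaced scaffold Un1752 (1574 to 13062, plus strand), is short for a laminin α chain, so that its level rests on only part of the gene. LAMA5 was at 15.8, 23.8 and 22.7 FPKM in 2DC, 23.6, 29.0 and 22.3 in 2DC_L, and 8.77, 14.8 and 9.08 in 2DF. In 3DF it was at 6.92, 9.30 and 13.7 FPKM, and in 3DF_50 at 14.3, 10.9 and 13.2. All 6 coated-dish libraries were above all 9 fibrillar ones, and the 3 fibrillar conditions overlapped. The log2 fold change was -1.06 ± 0.26 in 3DF vs. 2DC (edgeR adjusted p = 0.0260), close to the limit of 1. This call was made in only 2 of 6 fits without 1 library, being lost without 2DC replicate 2 or 3 or without 3DF replicate 1 or 2, and it was under the limit with scaling by library size alone (-0.89). The value for 2DF vs. 2DC was -0.92 ± 0.22 (edgeR adjusted p = 0.0243), under the limit on the fold.

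LAMA4, an α chain of vessel walls and mesenchymal cells, was an order of magnitude below LAMA5. It lies on chromosome 12 from 99897333 to 100054763 on the minus strand, and the 2 genes that overlap it had at most 2 counts in a library. Its level was 1.36, 1.70 and 1.13 FPKM in 2DC and 1.25, 1.65 and 1.60 in 2DC_L. The fibrillar conditions gave 0.599, 0.755 and 0.429 FPKM (2DF), 0.830, 0.683 and 0.669 (3DF), and 0.564, 0.700 and 0.823 (3DF_50). The coated dishes again lay above the fibrillar conditions, which overlapped with each other. LAMA4 fell in 2DF vs. 2DC by a log2 fold change of -1.22 ± 0.25 (edgeR adjusted p = 0.0140). The fits without 2DC replicate 2 and without 2DF replicate 1 did not call it. The differences in 3DF vs. 2DC (-0.95 ± 0.21, edgeR adjusted p = 0.0181) and 3DF_50 vs. 2DC (-0.998 ± 0.22, edgeR adjusted p = 0.00666) passed on p and stayed just under the limit on the fold.

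LAMA1, the α chain best known from early embryonic basement membranes, was the lowest of the 4 and the only one that was higher in 3DF than in every other condition. It lies on chromosome 9 from 54756728 to 54894573 on the plus strand, with no overlapping gene, and was counted 4 to 135 times per library. The 3DF libraries were at 0.566, 0.622 and 0.489 FPKM and the 3DF_50 libraries at 0.292, 0.221 and 0.363. LAMA1 was at 0.0780, 0.149 and 0.0242 FPKM in 2DF, 0.207, 0.263 and 0.313 in 2DC, and 0.167, 0.331 and 0.330 in 2DC_L. Each 3DF library was above the other 12, each 2DF library was below the other 12, and 2DC, 2DC_L and 3DF_50 overlapped. LAMA1 rose in 3DF vs. 2DF by a log2 fold change of 2.73 ± 0.46 (edgeR adjusted p = 0.00717), a call made in all 6 fits without 1 library, and in 3DF vs. 2DC by 1.09 ± 0.23 (edgeR adjusted p = 0.0157), a call made in 3 of 6 (not without 2DC replicate 1, 2DC replicate 2 or 3DF replicate 2). It was also higher in 3DF_50 than in 2DF, by a log2 fold change of 1.81 ± 0.51 (edgeR adjusted p = 0.0375), which only 1 of 6 such fits called, the one without 2DF replicate 2. In 2DF vs. 2DC the difference of -1.62 ± 0.51 did not pass in edgeR (adjusted p = 0.0667) and passed in DESeq2 (adjusted p = 0.0192). Of the 6 fits without 1 library, only the one without 2DF replicate 2 called this difference. The summed epithelial markers were also highest in 3DF, and in each fibrillar condition the library with the highest sum had the highest LAMA1: 3DF replicate 2 (13.3 and 0.622 FPKM), 3DF_50 replicate 3 (6.39 and 0.363) and 2DF replicate 2 (6.49 and 0.149). Of these, 3DF replicate 2 and 3DF_50 replicate 3 share the library prefix E7. Among the remaining libraries of each fibrillar condition, the one with the higher sum had the lower LAMA1. In 3DF these were replicate 3 (9.69 and 0.489 FPKM) and replicate 1 (8.17 and 0.566). The part of these markers in the LAMA1 values was not tested.

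Because FPKM is given per length, the 4 α chains can be set against each other within a library. LAMA5 made up 84.6% ± 2.6 of their summed FPKM in 3DF_50 (SD, n = 3), 67.7% ± 7.6 in 3DF, 64.5% ± 5.1 in 2DF, 66.5% ± 3.9 in 2DC and 68.4% ± 6.9 in 2DC_L. The share of LAMA2 was 8.84% ± 1.9 in 3DF_50, 23.0% ± 4.7 in 3DF, 31.4% ± 6.2 in 2DF, 28.1% ± 3.2 in 2DC and 26.7% ± 6.7 in 2DC_L. The 3DF_50 libraries thus stood apart from the other 12 in both shares. LAMA1 held 4.91%, 4.54% and 2.68% in 3DF, 1.77%, 1.73% and 2.24% in 3DF_50, and at most 0.958% in any other library, while LAMA4 held between 2.79% and 7.19% in all 15. The summed FPKM of the 4 chains was 31.0 ± 4.9 in 2DC and 36.4 ± 3.0 in 2DC_L, against 16.9 ± 5.1 in 2DF, 15.2 ± 2.1 in 3DF_50 and 14.5 ± 3.4 in 3DF. The shares are a description with no test. As shares of counts, with no correction for length, LAMA2 was above LAMA5 in every condition except 3DF_50, and since the LAMA5 model is short, the order of these chains depends on the length used.

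**Figure D3:**
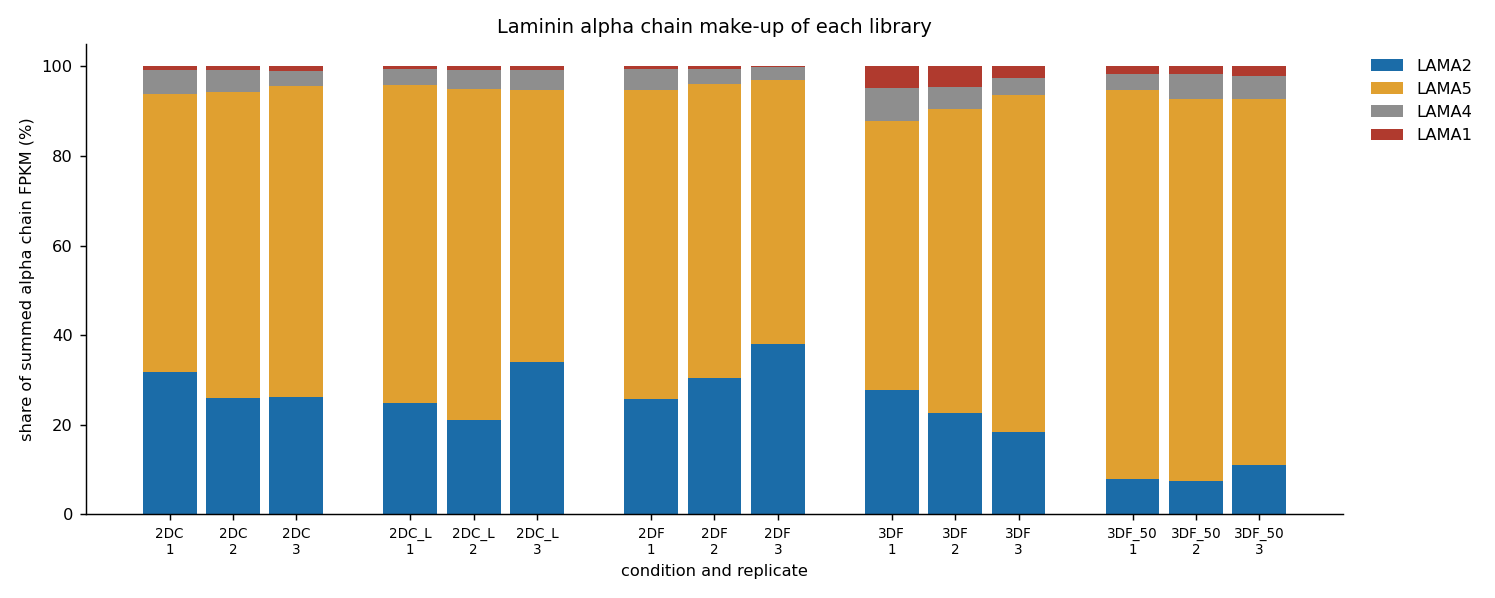
Share of LAMA1, LAMA2, LAMA4 and LAMA5 in their summed FPKM (vertical axis, %) in each of the 15 libraries. LAMA2 takes 7.55% to 11.0% in the 3DF_50 libraries and 18.4% to 38.1% in the others, and LAMA1 is visible mainly in 3DF.

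LAMB1 was the lower of the β chains, and LAMB2, named here after its values were seen, was the higher. LAMB1 lies on chromosome 7 from 44458094 to 44532466 on the minus strand, overlaps no gene and had 17 to 191 counts. On the dishes it was measured at 0.870, 0.865 and 1.32 FPKM (2DC) and at 1.17, 0.999 and 1.42 (2DC_L). Values were 0.282, 0.769 and 0.618 FPKM in 2DF, 0.584, 0.701 and 0.759 in 3DF, and 0.170, 0.238 and 0.386 in 3DF_50. The coated dishes lay above the fibrillar conditions, of which 3DF_50 was below 3DF and overlapped 2DF. LAMB1 fell in 3DF_50 vs. 2DC by a log2 fold change of -1.93 ± 0.33 (edgeR adjusted p = 0.00197), the only DEG call for this gene among the comparisons with 2DC. With 100000 cells it differed from 2DC by -0.59 ± 0.24 (edgeR adjusted p = 0.142), and between the cell numbers, 3DF vs. 3DF_50, by 1.33 ± 0.32 (edgeR adjusted p = 0.0906), which DESeq2 called (adjusted p = 0.0108). None of the 6 fits without 1 library called the difference between the cell numbers. LAMB2, the β chain of the neuromuscular and glomerular basement membranes, had 189 ± 14.2 FPKM in 2DC, 144 ± 22.3 in 2DF, 112 ± 16.6 in 3DF and 100.3 ± 4.8 in 3DF_50, and its log2 fold change of -0.76 ± 0.15 in 3DF vs. 2DC (edgeR adjusted p = 0.0103) was under the limit on the fold. Per length, therefore, the transcripts of LAMB1 were far fewer than those of LAMB2 in every library.

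LAMC1, the γ chain of most laminins, was the most abundant of the 9 genes per length. The gene model that carries its symbol is only 832 bases long, on the unplaced scaffold Un0375 (191084 to 195639, plus strand), and the gene LOC108176084 on the minus strand overlaps it. A second model, LOC100351387 (3362 bases on Un1152, 919 to 20285), has the gene ID that RefSeq gives to LAMC1, and was taken up after its values were seen. LAMC1 was measured at 77.0, 71.8 and 79.6 FPKM in 2DC and 83.8, 72.2 and 92.5 in 2DC_L. It reached 66.3, 68.7 and 65.9 FPKM in 2DF, 58.2, 62.4 and 65.0 in 3DF_50, and 27.7, 55.2 and 56.0 in 3DF. All libraries on fibrillar collagen were below those on coated dishes, and 3DF replicate 1 was far below the rest. LOC100351387 had the same low library, with 69.6 FPKM against 109 and 115 in the other 3DF libraries. The ratio of the 2 models was between 0.398 and 0.556 in all 15 libraries, lowest in 3DF replicate 1.

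LAMC1 was a DEG in none of the comparisons. Its log2 fold change was -0.73 ± 0.25 in 3DF vs. 2DC (edgeR adjusted p = 0.0858), -0.18 ± 0.077 in 2DF vs. 2DC (edgeR adjusted p = 0.153) and -0.45 ± 0.24 in 3DF vs. 3DF_50 (edgeR adjusted p = 0.327). LOC100351387 gave -0.67 ± 0.19 in 3DF vs. 2DC (edgeR adjusted p = 0.0497), and the counts of both models summed gave -0.67 ± 0.20 (edgeR adjusted p = 0.0534). In 3DF_50 vs. 2DC the difference of -0.30 ± 0.078 passed on p (edgeR adjusted p = 0.0155) and was well under the limit on the fold, and with scaling by library size alone it was 0.053. LAMC1 had the smallest changes of the set in 2DF vs. 2DC and in 3DF_50 vs. 2DC among the 7 genes that were highest on the dishes.

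**Figure D4:**
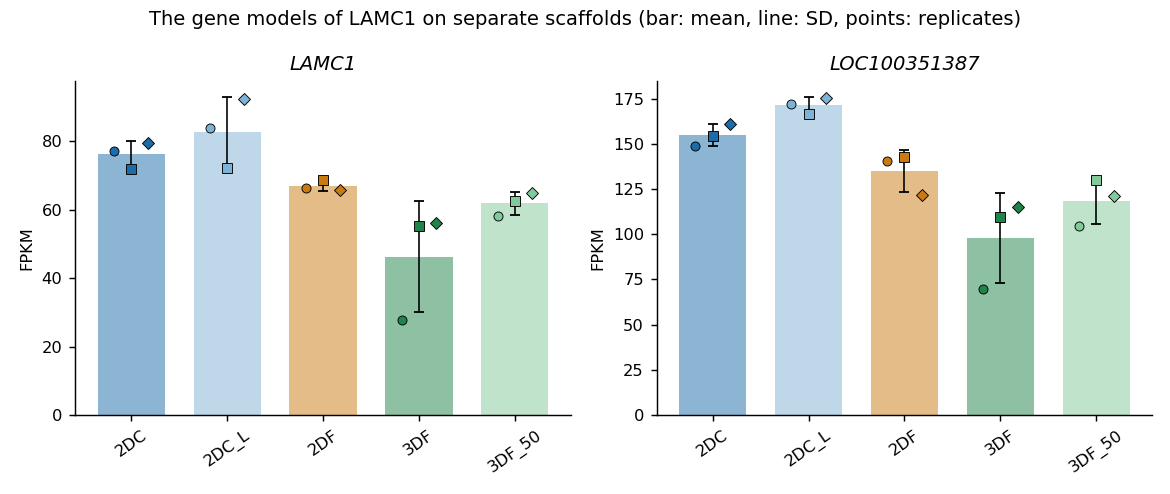
FPKM of the model named LAMC1 and of LOC100351387, which RefSeq assigns to LAMC1, by condition (bars for means, lines for SD, points for 3 libraries). Both are highest on the coated dishes, and in both 3DF replicate 1 is the lowest library, at 27.7 and 69.6 FPKM.

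LAMC3, a γ chain found in nerve, retina and other tissues, was the one member that rose with fibrillar collagen in both matrix conditions. Its model of 3423 bases lies on the scaffold Un0066 (21 to 21997, plus strand). A further short model described as the same chain in the deposited annotation, LOC103346304, had 0 to 12 counts per library. LAMC3 was at 0.149, 0.0664 and 0.238 FPKM in 2DC (15, 5 and 18 counts) and 0.243, 0.248 and 0.247 in 2DC_L. It was at 0.133, 0.777 and 0.201 FPKM in 2DF, 0.641, 1.23 and 1.10 in 3DF (55, 95 and 76 counts) and 0.728, 0.457 and 0.847 in 3DF_50. All 6 matrix libraries lay above all 6 coated-dish libraries, and 2DF was split, with replicate 2 among the matrices and the others among the dishes. The log2 fold change was 2.69 ± 0.45 in 3DF vs. 2DC (edgeR adjusted p = 0.00581) and 2.15 ± 0.45 in 3DF_50 vs. 2DC (edgeR adjusted p = 0.00563), each called in all 6 fits without 1 library. It did not pass in 2DF vs. 2DC (1.29 ± 0.70, edgeR adjusted p = 0.252), and there it was 0.15 without 2DF replicate 2. It did not pass in 3DF vs. 2DF either (1.41 ± 0.56, edgeR adjusted p = 0.181), where leaving out 2DF replicate 2 gave 2.55 and a call. As for LAMA1, the library with the highest summed epithelial markers had the highest LAMC3 in each fibrillar condition, with sums of 6.49 FPKM in 2DF replicate 2, 13.3 in 3DF replicate 2 and 6.39 in 3DF_50 replicate 3, beside LAMC3 levels of 0.777, 1.23 and 0.847. Again, 3DF replicate 2 and 3DF_50 replicate 3 share the prefix E7. Among the remaining libraries of 3DF and of 2DF, the one with the higher sum also had the higher LAMC3. In 3DF these were replicate 3 (9.69 and 1.10 FPKM) and replicate 1 (8.17 and 0.641). In 2DF they were replicate 3 (3.21 and 0.201 FPKM) and replicate 1 (0.948 and 0.133). In 3DF_50 replicates 1 and 2 the sums were 0.0869 and 0.204 FPKM, below every coated-dish library. Their LAMC3 levels, 0.728 and 0.457, were above all dishes. The part of these markers in the LAMC3 values was not tested.

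Direct lysis of the coated dishes served as the control for the digestion step. In 2DC vs. 2DC_L neither edgeR nor DESeq2 called any of the 9 genes, where 0.265% of the 13608 genes tested were in edgeR, and 1 of the 9 (HSPG2) had an unadjusted p under 0.05. All 9 log2 fold changes were below 0, between -0.70 for LAMC3 and -0.075 for LAMA1, and 2 genes, HSPG2 and LAMC3, did not overlap between the groups (12.8% of all genes). HSPG2 was lower in 2DC than in 2DC_L by 0.36 on the log2 scale, with an SE of 0.13 (edgeR adjusted p = 0.796). The directly lysed dishes thus gave a second reference for the fibrillar conditions.

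Against 2DC_L, 6 of the 9 genes were DEGs in each of 3DF, 2DF and 3DF_50, compared with 10.2%, 7.39% and 13.5% of all genes tested. HSPG2 was called lower in all 3, with log2 fold changes of -1.79, -1.43 and -2.53 (edgeR adjusted p = 0.000761, 0.000638 and 4.74e-06). LAMA4 was also called lower in all 3 (-1.04, -1.32 and -1.10), but in 3DF only 2 of 6 fits without 1 library called it (those without 2DC_L replicate 1 or 3DF replicate 1), and it was lost with scaling by library size alone (-0.87) and with the library prefix as a block (-0.93, edgeR adjusted p = 0.0628). In 2DF LAMA4 had -1.38 with the prefix block, which did not call it but rests there on 2DF replicate 1 alone. In 3DF_50 the LAMA4 call was lost with library size alone (-0.75) and without 3DF_50 replicate 1 (-0.97). LAMC3 was called higher in both matrices, by 2.00 in 3DF and 1.46 in 3DF_50 (edgeR adjusted p = 0.00201 and 0.00513), and LAMA1 was called higher in 3DF (1.03) and lower in 2DF (-1.70). These LAMA1 calls were made in 4 of 6 fits in 3DF (not without 2DC_L replicate 1 or 3DF replicate 2) and in 2 of 6 in 2DF (those without 2DC_L replicate 1 or 2DF replicate 2). The prefix block lost the 3DF call (0.87, edgeR adjusted p = 0.0639). In 2DF the prefix block gave LAMA1 -1.43 from 2DF replicate 1 alone, which was not called. The comparison 3DF_50 vs. 2DC_L shares no library with 3DF vs. 2DC, although libraries of both carry the prefixes E2, E3 and E7, and in both of them LAMA2 and HSPG2 were called lower and LAMC3 higher. Against 2DC, 3DF_50 had 5 DEGs among the 9 (LAMA2, LAMB1, HSPG2 and NPNT lower and LAMC3 higher, background 11.6%), and against 2DF it had 3 (LAMA1 higher and LAMA2 and HSPG2 lower, background 4.45%). On the adjusted p alone, 8 of the 9 passed in 3DF_50 vs. 2DC, as did 38% of all genes. Comparisons that share a condition share its libraries, so their values are not independent.

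The names of the libraries carry prefixes, such as E3 and E7, that some conditions share, and these were read as the experiment of a library. The 2DF libraries share a prefix only with 3DF_50, so that no pair of libraries from 1 experiment stands behind 2DF vs. 2DC or 3DF vs. 2DF, and there condition and experiment cannot be told apart. Between the 3DF and 2DC libraries of E6, the log2 ratio of scaled counts was -1.91 for HSPG2, -1.41 for LAMA2, -1.70 for LAMA5, 0.86 for LAMA1 and 1.44 for LAMC3, while for NPNT it was -0.14. Between 3DF and 2DC_L in E7 it was -1.95 for HSPG2, -2.00 for LAMA2, -1.48 for NPNT and 2.32 for LAMC3. The 5 DEGs of 3DF vs. 2DC had the same directions between the 3DF and 2DC libraries of E6, with no test. Both libraries are part of that comparison, whose FPKM did not overlap for any of the 9 genes. These directions were therefore fixed in advance and add no support. For 3DF_50, the ratio to 2DC in E3 was -2.33 for HSPG2, -2.77 for LAMA2, -2.34 for LAMB1, -1.92 for NPNT and 3.47 for LAMC3, where the 2DC library had 5 counts of LAMC3. In E7, LAMA2 had a ratio of 0.79 between 3DF and 3DF_50, LAMB1 of 0.86 and NPNT of 0.91, all below 1. Between 3DF_50 and 2DF in E5, the ratio was 1.49 for LAMA1, -1.78 for LAMA2, -1.01 for HSPG2 and -1.07 for NPNT. The genes given for E7, E3 and E5 did not overlap in FPKM in these comparisons either. Their directions were thus also fixed in advance and add no support. A fit of all 5 conditions with the prefix as a block kept LAMA2, LAMA5, HSPG2 and LAMC3 as DEGs in 3DF vs. 2DC, where LAMA1 was lost (0.87, edgeR adjusted p = 0.0640) and LAMB1 and LAMC1 were gained (-1.05 and -1.09, edgeR adjusted p = 0.0246 and 0.00719). In 3DF vs. 3DF_50 that fit did not call LAMA2 (0.96, edgeR adjusted p = 0.117). The prefixes E8, E9 and E10 each hold 1 library (3DF replicate 3, 2DF replicate 2 and 2DF replicate 3), which the block absorbs. In comparisons with 2DF the fit thus rests on 2DF replicate 1 alone, which shares E5 with 3DF_50. There LAMA4, HSPG2 and NPNT had -1.35, -1.32 and -0.79 in 2DF vs. 2DC, and LAMA1 had 2.29 in 3DF vs. 2DF. None of these was called, and with 1 library the fit cannot decide these calls.

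**Figure D5:**
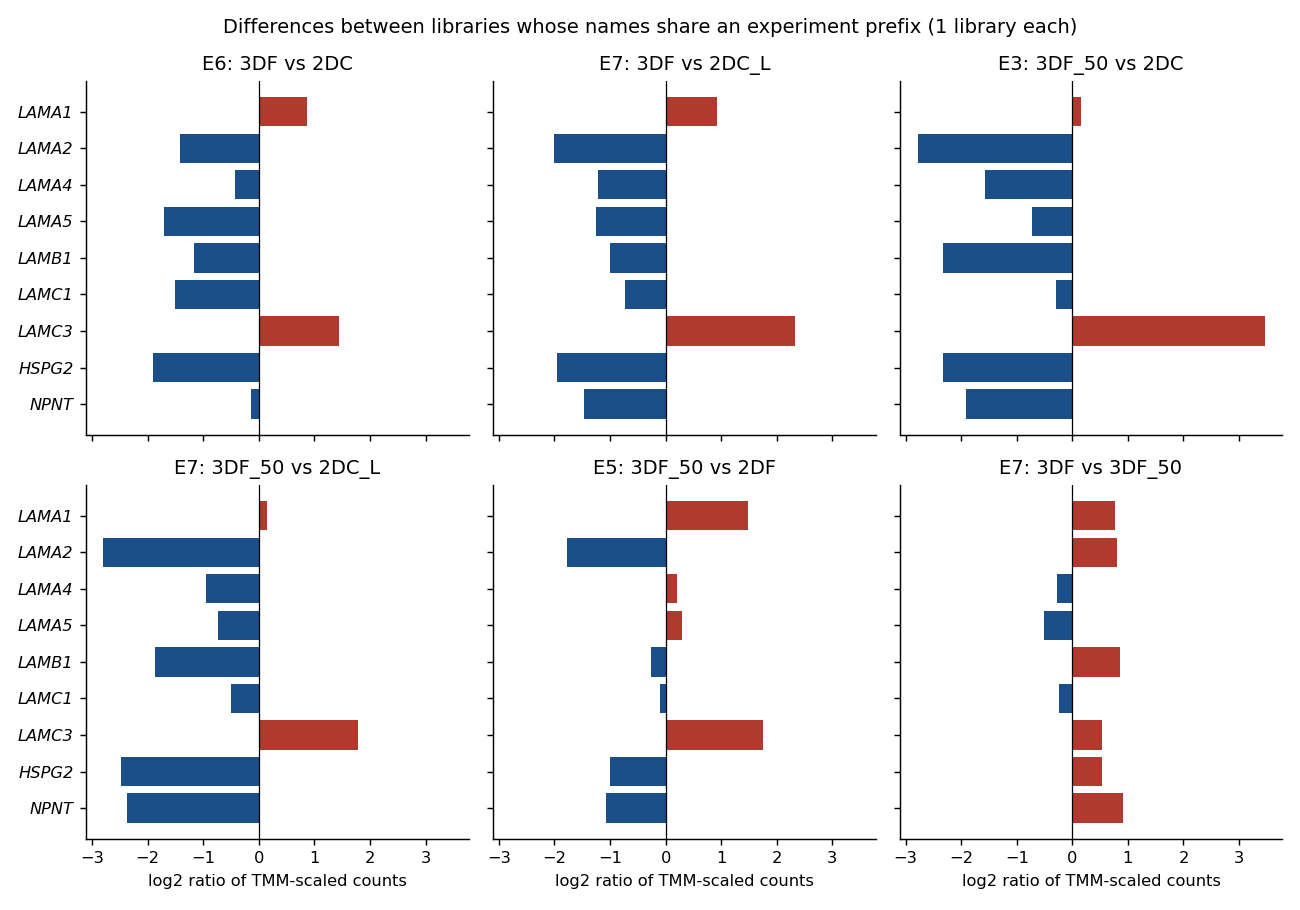
Log2 ratio of TMM-scaled counts between 2 libraries whose names share a prefix, for the 9 genes (1 library per condition, no error). LAMC3 and LAMA1 lie above 0 and the other genes below 0 in all 4 panels that set a matrix against a coated dish. The libraries shown also enter the tests of these comparisons. In those 4 comparisons the FPKM of each gene did not overlap, except for LAMA1 with 3DF_50. Directions without overlap were fixed in advance and add no support.

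The 9 genes did not all vary together across the 15 libraries, which share their condition means and library preparation. On log2(FPKM + 1), HSPG2 had a Pearson r of 0.95 with LAMA2, 0.91 with LAMB1 and 0.89 with NPNT, but 0.67 with LAMC1 and -0.56 with LAMC3. LAMA1 had an r of 0.64 with LAMC3 and between -0.51 and 0.11 with the other members. Among 9665 genes with a symbol and a mean of at least 1 FPKM, those most like HSPG2 were B4GALT2, P3H3 and ARSE (r = 0.986, 0.985 and 0.982), and those most like LAMA2 were MAGED1, SHROOM4 and COL14A1 (r = 0.985, 0.983 and 0.980). The genes nearest to NPNT were SEMA5A, SEMA3D and BMP3 (r = 0.985, 0.982 and 0.976). For LAMA1, the nearest (PTPRD, ENOX1 and TRAF4) reached an r of only 0.898. LAMA4 was closest to KIF21A, ADRA1A and SLCO1C1 (r from 0.970 to 0.932), LAMA5 to B3GNT8, TMEM109 and CGNL1 (0.941 to 0.924), LAMB1 to KIF6, GLI3 and SEMA3A (0.957 to 0.941) and LAMC3 to GMPR, BATF2 and SYT12 (0.938 to 0.931). These are descriptions with no test.

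Genes that work with the 9 were counted from fixed lists. Of 22 other basement membrane genes tested in 3DF vs. 2DC, 12 fell and 0 rose (background 7.56%), with a list median log2 fold change of -1.18. In 2DF vs. 2DC 5 of 22 fell (background 4.96%), and in 3DF vs. 2DF 4 of 21 fell (3.78%). In 3DF vs. 3DF_50 2 of 21 were higher in 3DF (NID1 and COL4A4, background 0.452%). None of the 22 was a DEG in 2DC vs. 2DC_L in edgeR (background 0.265%), where 2 had an unadjusted p under 0.05. The nidogen gene NID2 fell in 3DF vs. 2DC by a log2 fold change of -5.26 ± 0.12 (edgeR adjusted p = 5.38e-07), from 34.0, 34.2 and 36.9 FPKM in 2DC to 0.930, 0.926 and 0.900 in 3DF, and it was lower again in 3DF than in 2DF (-1.30, edgeR adjusted p = 0.0170). Its paralog NID1 fell in 2DF vs. 2DC (-1.03, edgeR adjusted p = 0.0131) and was higher in 3DF than in 3DF_50 (1.12, edgeR adjusted p = 0.0318). Of the type IV collagen genes, which form the network that nidogen joins to laminin, COL4A1, COL4A2, COL4A3 and COL4A4 fell in 3DF vs. 2DC (log2 fold changes of -1.48, -1.58, -2.62 and -2.00). The other DEGs of this list in 3DF vs. 2DC were TINAGL1 (-4.97), SMOC1 (-2.10), PAPLN (-1.61), PXDN (-1.38), SPARC (-1.19) and SMOC2 (-1.05), which encode secreted matrix proteins and, in PXDN, a peroxidase that crosslinks type IV collagen. COL15A1, a basement membrane collagen, was also a DEG, at 0.191 to 0.524 FPKM in 2DC and 0 to 0.0513 in 3DF.

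Of the receptors, 12 were tested in 3DF vs. 2DC (background 7.56%) and 13 in 2DF vs. 2DC (background 4.96%). The syndecan gene SDC4 rose and SDC1 fell both in 3DF vs. 2DC (1.05 ± 0.12 and -1.92 ± 0.18, edgeR adjusted p = 0.000895 and 0.000433) and in 2DF vs. 2DC (1.32 ± 0.14 and -1.01 ± 0.13, edgeR adjusted p = 0.000892 and 0.00198). ITGA2, an integrin subunit that pairs with ITGB1 to bind collagen and laminin, was higher in 3DF than in 3DF_50 by 1.07 (edgeR adjusted p = 0.0401). No other receptor of the list was a DEG in these comparisons. EdgeR called none in 3DF vs. 2DF (6 of 12 tested had an unadjusted p under 0.05) or in 2DC vs. 2DC_L (1 of 13). Comparisons with 3DF_50 or 2DC_L gave further calls. In 3DF_50 vs. 2DC, the dystroglycan gene DAG1, SDC1 and ITGA1 were called lower (3 of 12, background 11.6%). In 3DF_50 vs. 2DC_L, DAG1, SDC1, ITGA2 and ITGA1 were called lower and ITGB4 higher (12 tested, background 13.5%). ITGB4 was also called higher in 2DF vs. 2DC_L. None of the 10 genes tested for the glycosylation of dystroglycan, which laminin α chains bind, was a DEG in any comparison in edgeR. With backgrounds of 0.265% to 13.5%, 0 calls among 10 genes is near the share over all genes. An unadjusted p under 0.05 was found for 3 of them in 3DF vs. 2DC and for 4 in 2DF vs. 2DC. The share of all genes with such a p is not given here. Of 13 heparan sulfate enzymes, SULF1, which trims sulfate from heparan sulfate chains such as those of perlecan, fell in 3DF vs. 2DC (-1.30 ± 0.15, edgeR adjusted p = 0.00101), and the other 12 were not called. This count is near the background of 7.56%. SULF1 and EXT2 were called lower in 3DF_50 vs. 2DC, 3DF vs. 2DC_L and 3DF_50 vs. 2DC_L (2 of 13 each, backgrounds 11.6%, 10.2% and 13.5%). The other laminin chains in the table, LAMA3, LAMB2 and LAMB3, gave no DEG with edgeR in 2DC vs. 2DC_L (0 of the 3 with an unadjusted p under 0.05), in 3DF vs. 2DC, 3DF vs. 2DF or 3DF vs. 3DF_50 (1 of 3 each), or in 2DF vs. 2DC (2 of 3). In 3DF_50 vs. 2DC_L, LAMB2 (-1.16) and LAMA3 (-2.37) were called lower (2 of 3, background 13.5%). LAMA3 had 6 to 20 counts in the 3DF_50 libraries.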

How the data were processed

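Rabbit corneal keratocytes were profiled by bulk RNA-seq in 15 libraries, 3 for each of 5 conditions. The deposited table of counts holds whole, unnormalized read numbers per gene from HISAT2 alignments to oryCun2, which the authors tallied with featureCounts. The deposited FPKM divide these counts by gene model length and by a size chosen by the authors for each library, 1.026 to 1.047 times the TMM size. Whether strand was used in counting is not given in the sources used here, so reads of overlapping genes cannot be told apart. Replicates are separate experiments. Between 14626982 and 31804255 reads were counted per library, and counts of 3 or fewer were treated as the floor. Libraries of one condition differed beyond counting noise (a chi-square of 13.4 to 68.2 per gene), so errors are those between libraries.

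For each pair of conditions, all genes were tested by the two-sided quasi-likelihood F test of edgeR 4.0.16 (R 4.3.3). Only the libraries compared entered the fit, which used TMM and filterByExpr (minimum count 10), and p-values were adjusted by Benjamini–Hochberg over all genes tested. SEs are the log2 fold change divided by the square root of F. A 5-condition F test used all 15 libraries. The scripts were tested on simulated data. Alternatives were DESeq2 1.42.0, its size factors, library size alone, no filter, all 5 conditions in the fit, a replicate block, a prefix block, limma 3.58.1 on log2(FPKM + 1) of genes with a mean of 0.1 FPKM or more, no limit on the fold, and leaving out each library. Summing both LAMC1 models was added after the data were seen. Summaries and figures came from Python 3.11.15 (pandas 2.3.3, numpy 2.4.6, matplotlib 3.10.9).

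The members and lists were chosen with earlier results of these data known. The genes named are the members, every gene of a list called in 2DC vs. 2DC_L, in 3DF vs. 3DF_50 or between any of 3DF, 2DF and 2DC, the 3 genes most like each member called in any comparison, and markers. DAG1, EXT2, ITGA1, ITGB4, LAMA3 and LAMB2 were named outside this rule. The lists were other laminin chains (3 of 5 in the table), other basement membrane genes (24 of 26), receptors (14 of 15), dystroglycan glycosylation (10 of 12) and heparan sulfate enzymes (14 of 15), and the other list members, such as LAMB4 and COL18A1, were not analysed here. The marker lists were keratocyte, corneal epithelium, corneal endothelium, vascular endothelium, immune, Schwann cell and proliferation. The immune list (2.22 to 7.86 FPKM summed) had 1 call in those 5 comparisons, CD68 lower in 3DF than in 2DF, and the Schwann cell list (9.07 to 19.6 FPKM) had none in edgeR. RefSeq gene names were used only to identify gene models. No sequences were analysed here.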

Additional observations from a re-analysis of the deposited data

How the results depend on the processing

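Of the 1270 log2 fold changes of members under an alternative, 1135 kept their direction and their side of the thresholds, 75 lost the call, 39 gained it and 21 changed sign. In 3DF vs. 2DC, HSPG2, LAMA2 and LAMC3 were called in all 6 fits without 1 library, and the count of members called ranged from 3 (without 2DC replicate 2 or 3DF replicate 2) to 6. The other counts without 1 library were 1 (without 2DF replicate 1) to 5 (without 2DF replicate 2) in 2DF vs. 2DC, 1 to 2 (without 2DF replicate 2) in 3DF vs. 2DF, 0 (without 3DF replicate 3, 3DF_50 replicate 1 or 3DF_50 replicate 2) to 1 in 3DF vs. 3DF_50, and 1 (without 3DF_50 replicate 2) to 3 in 3DF_50 vs. 2DF. The F test over 5 conditions passed 8 of 9 members with library size alone, 7 with the prefix block and 9 in all other fits. With limma on log2(FPKM + 1), which understates changes of low genes, the members called were 3 in 3DF vs. 2DC, 0 in 3DF vs. 2DF, 0 in 3DF vs. 3DF_50, 3 in 3DF_50 vs. 2DC, 3 in 3DF vs. 2DC_L, 3 in 2DF vs. 2DC_L and 3 in 3DF_50 vs. 2DC_L. With the prefix block there were 0 in 3DF vs. 3DF_50, and the cause was not tested. In comparisons with 2DF the prefix block rests on 2DF replicate 1 alone, so its calls there are not counted. In 3DF vs. 3DF_50, DESeq2, no filter and all 5 conditions in the fit each gave 3 calls (LAMA2, LAMB1 and NPNT) and library size alone gave 0. The share of all genes called by each alternative is not given here, so these member counts cannot be set against it. Without the limit on the fold, 8 members were called in 3DF_50 vs. 2DC.

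Replicate numbers were not taken as a pairing, since in no comparison did all 3 correlations between same-numbered libraries exceed 0.1 (mean r from -0.078 to 0.17). Some same-numbered libraries do share a prefix: replicates 1 and 2 of 2DC and 2DC_L (r = 0.31 and 0.077) and replicate 3 of 2DC_L and 3DF_50 (r = 0.23). With the replicate block, the count was 2 in 3DF vs. 3DF_50 (NPNT gained), 2 in 3DF_50 vs. 2DF (LAMA1 lost), and the other comparisons had the same counts. Scaling by library size alone moved the median over all genes tested to a log2 fold change of 0.19 in 3DF vs. 2DC, 0.11 in 2DF vs. 2DC, -0.15 in 3DF vs. 3DF_50, 0.37 in 3DF_50 vs. 2DC and 0.25 in 3DF_50 vs. 2DF. Under it LAMA4 had -0.13 in 3DF vs. 3DF_50, and LAMC1 had 0.053 in 3DF_50 vs. 2DC and 0.13 in 3DF_50 vs. 2DF, all with the opposite sign. The prefix block turned the sign of LAMC1 in 2DC vs. 2DC_L (0.078) and of LAMC3 in 2DF vs. 2DC_L (-0.13). Leaving out 1 library changed the sign of values that were not called: LAMA5 (-0.42 to 0.17) and LAMB1 (-0.024 to 0.60) in 3DF vs. 2DF, LAMA4 in 3DF vs. 3DF_50 (-0.098 to 0.16), LAMA1 (-0.34 to 0.095), LAMA2 (-0.27 to 0.044), LAMA4 (-0.26 to 0.028) and NPNT (-0.26 to 0.12) in 2DC vs. 2DC_L, LAMA1 in 3DF_50 vs. 2DC (-0.023 to 0.33) and in 3DF_50 vs. 2DC_L (-0.18 to 0.27), and LAMC3 in 2DF vs. 2DC_L (-0.54 to 1.00).

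As shares of counts, LAMA2 made up 22.3% of the α chains in 3DF_50, 45.0% in 3DF, 57.9% in 2DF, 53.8% in 2DC and 51.9% in 2DC_L, and LAMA5 66.8%, 42.1%, 37.5%, 39.9% and 42.3%, since the LAMA5 model is shorter. Summing both LAMC1 models changed no call. Low counts limit LAMA1 (4 to 135) and LAMC3 (5 to 95).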
